A study of Mus musculus with 4 samples.

Results

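The small leucine-rich proteoglycans (SLRPs) measured here were the 10 genes Dcn, Bgn, Aspn, Fmod, Lum, Prelp, Omd, Ogn, Podn and Podnl1, taken by symbol from 24319 gene entries. All 10 were found, and each had a value above 0 in all 4 libraries. Polyadenylated RNA was sequenced from primary mouse marrow stromal cultures, labelled mesenchymal stem cells, after 4 days of culture. They came from wild-type cells in control medium, cells labelled KDM4B KO in control medium, wild-type cells under osteogenic induction and KO cells under osteogenic induction. The knockout allele, its driver, the number and age of the mice and the agents of the induction medium were not given in the labels. Each group was 1 library, so there was no replicate spread and no test between conditions, and every difference below is between libraries as labelled.

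SLRPs are secreted matrix proteins built on a core of leucine-rich repeats. Many carry sulfated sugar chains, and several bind collagen fibrils and set their thickness and spacing, while others hold growth factors such as TGF-beta in the matrix. In bone, biglycan and decorin are the common members with chondroitin or dermatan sulfate chains, osteomodulin is a keratan sulfate proteoglycan of mineralised matrix, and asporin and osteoglycin are made by cells of the osteoblast and periosteal lineages.

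The values were FPKM, which count fragments relative to transcript length and library size, so levels of different genes can be set side by side. Steps between low values put the depth at 15.8 to 19.3 times 1000000 fragments per library. The induced WT library stood apart from the others in sex-linked genes. Xist was at 0.0621 FPKM in it and at 21.6 to 30.5 FPKM in the other 3 libraries, and the Y-linked Ddx3y was at 28.7 FPKM in it and at most 0.0208 FPKM elsewhere. Kdm4b, the targeted gene, was at 4.60 and 4.30 FPKM in control WT and control KO and at 5.83 and 4.26 FPKM in induced WT and induced KO. The label of the cells was therefore not visible in the gene-level value. Of 18 stromal markers, 17 reached 1 FPKM in each library, the exception being Lepr. The summed level of the stromal markers was 1173 FPKM in control WT, 1521 FPKM in control KO, 3436 FPKM in induced WT and 1799 FPKM in induced KO. Of these sums, Col1a1 and Col1a2 made up 515, 633, 1909 and 836 FPKM in that order. All 13 macrophage markers exceeded 1 FPKM in each library, with sums between 13990.4 and 18827.8 FPKM, so the cultures held macrophage transcripts as well as stromal ones. In such bulk RNA, fewer cells of a type and less RNA per cell cannot be told apart.

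Most SLRP genes lie in small groups on the chromosomes, and the neighbours Aspn, Omd and Ogn on chromosome 13 were the ones that stood highest together in the induced WT library. Their upstream windows are shown because of that shared pattern, and that of Bgn on chromosome X because its level hardly differed between libraries. Each is the 250 bases before the RefSeq start in build GRCm38.p6, 5′ to 3′ on the gene's strand. RefSeq windows matched 7 of the 10 genes. Capitals mark matches on either strand to TATAAA (a core promoter box), TGTGGT (the RUNX core), TGANTCA (the AP-1 site), TAATTA (the homeodomain core) or TGTTCT (the glucocorticoid receptor half-site). The windows were chr13:49544193-49544442 for Aspn, chr13:49582212-49582461 for Omd, chr13:49607765-49608014 for Ogn and chrX:73483351-73483600 for Bgn, all on the plus strand.
Aspn: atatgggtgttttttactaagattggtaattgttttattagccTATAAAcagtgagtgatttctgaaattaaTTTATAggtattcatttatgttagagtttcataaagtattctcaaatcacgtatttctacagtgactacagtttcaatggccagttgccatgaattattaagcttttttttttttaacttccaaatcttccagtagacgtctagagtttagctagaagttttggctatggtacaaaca
Omd: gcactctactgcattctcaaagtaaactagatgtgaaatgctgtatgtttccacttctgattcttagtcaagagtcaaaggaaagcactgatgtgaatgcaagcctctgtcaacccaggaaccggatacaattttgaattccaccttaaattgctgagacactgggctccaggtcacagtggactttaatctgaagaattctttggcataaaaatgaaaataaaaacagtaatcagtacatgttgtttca
Ogn: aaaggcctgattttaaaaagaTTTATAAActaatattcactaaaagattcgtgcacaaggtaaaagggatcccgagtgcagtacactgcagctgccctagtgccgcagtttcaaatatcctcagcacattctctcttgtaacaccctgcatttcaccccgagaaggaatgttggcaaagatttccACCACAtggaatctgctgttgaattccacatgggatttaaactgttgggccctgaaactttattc
Bgn: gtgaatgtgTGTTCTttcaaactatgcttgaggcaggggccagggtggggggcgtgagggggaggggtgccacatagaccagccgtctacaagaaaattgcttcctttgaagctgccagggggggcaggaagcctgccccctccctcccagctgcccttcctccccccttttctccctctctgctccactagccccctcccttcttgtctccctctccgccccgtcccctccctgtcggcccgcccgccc
The Aspn window held TATAAA on each strand, between 207 and 202 and between 178 and 173 bases before the start. The Ogn window held an overlapping pair of TATAAA matches on opposite strands, between 229 and 222 bases before the start. It also held 1 RUNX core match, between 65 and 60 bases before the start. The TATAAA matches were thus near the far end of the Ogn window and in the far part of the Aspn window. They are not shown to act as core promoter boxes. No match to the 5 motifs was in the Omd window, and the Bgn window held 1 glucocorticoid half-site. Over all 32851 windows of the same length, 12.4% held TATAAA, 14.05% the RUNX core, 6.75% the AP-1 site, 4.84% the homeodomain core and 16.1% the half-site. These matches describe letters and do not show binding. The GC content was 30.0% in the Aspn window, 38.4% in the Omd window and 42.0% in the Ogn window, against a median of 52.4% over all windows and 64.4% in the Bgn window. Fmod on chromosome 1 was also highest in the induced WT library. Its window, not printed here, had a GC content of 51.2% and 0 motif matches, so these window traits were not shared by all genes with that pattern.

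Bgn dominated the family in every library. Biglycan, a class I SLRP with glycosaminoglycan chains that is abundant in bone, was at 447 FPKM in control WT, 483 FPKM in control KO, 505 FPKM in induced WT and 372 FPKM in induced KO. That was 92.3%, 90.4%, 84.9% and 87.9% of the summed FPKM of the 10 genes, and Bgn ranked between place 147 and place 246 of all entries. The other 9 genes together came to 37.4 FPKM in control WT, 51.3 FPKM in control KO, 90.0 FPKM in induced WT and 51.2 FPKM in induced KO. Their order differed between libraries. In control WT the highest of the 9 was Prelp with 33.4% of their sum, in control KO it was Dcn with 34.1%, in induced WT it was Ogn with 37.4%, and in induced KO it was again Ogn, with 25.6%. Dcn was next in induced KO with 23.3%, and Aspn was next in induced WT with 22.0%. Podn, at 0.314, 0.399, 0.742 and 0.665 FPKM in control WT and KO and induced WT and KO, stayed below 1 FPKM throughout. It was left out where members were counted by the size of a difference between 2 libraries.

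**Figure D1:**
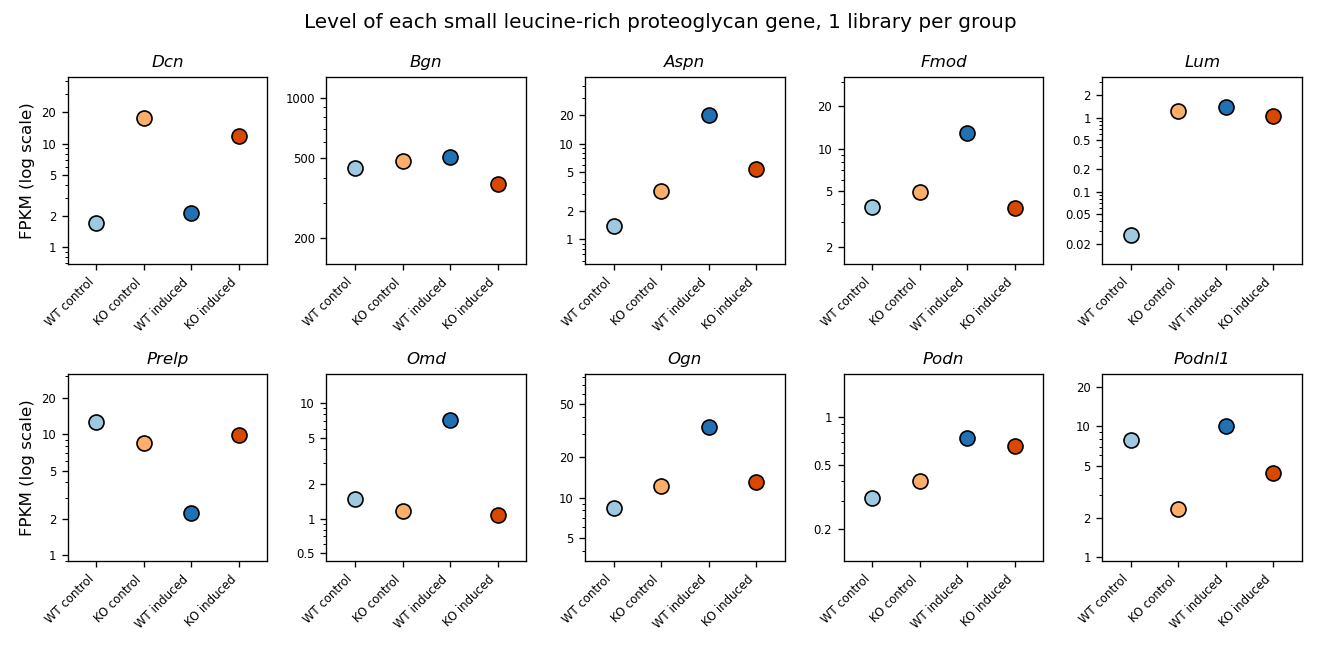
FPKM of each of the 10 SLRP genes on a log axis with its own range, 1 point per library. Dcn is high in both KO libraries, Prelp is low in induced WT, Aspn, Fmod, Omd and Ogn are high in induced WT, and Lum is near 0 in control WT.

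**Figure D2:**
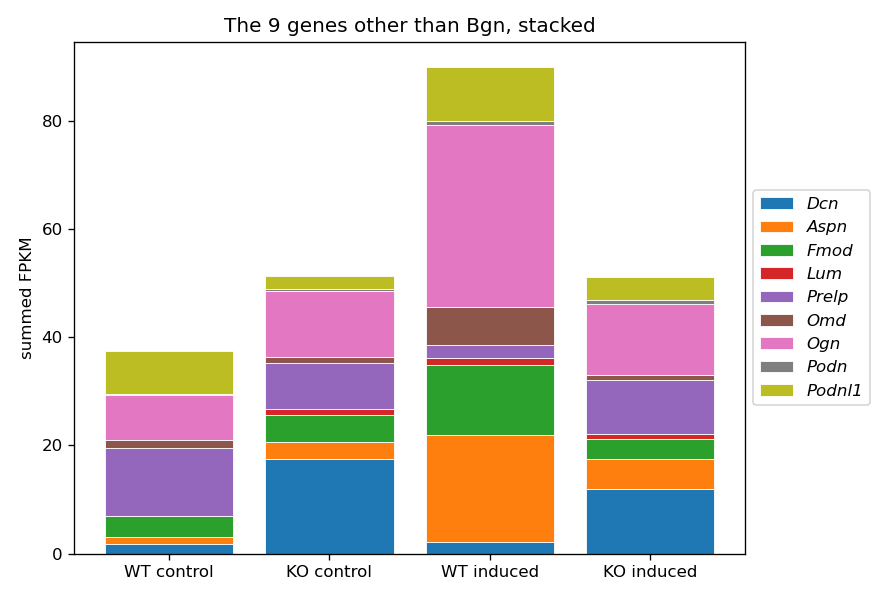
Summed FPKM of the 9 SLRP genes other than Bgn, stacked by gene, 1 bar per library. The total is 37.4 FPKM in control WT and 90.0 FPKM in induced WT, and Dcn is a large part only of the bars of the 2 KO libraries.

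The first comparison set the control KO library against the control WT library. Dcn and Lum were higher and Podnl1 was lower, and the other 6 genes that reached 1 FPKM differed by less than the size used for a count, a log2 ratio of FPKM + 1 of at least 1. Thus 3 of 9 genes passed, against a background of 2.4% of all 11845 genes measured in these libraries (0.929% higher, 1.47% lower). Scaling to the stromal markers shifts log2 ratios of FPKM by -0.37 before 1 is added to each value. Log2 ratios of FPKM + 1 then move by other amounts at low levels, as for Lum, from 1.11 to 1.14. With this scaling 67 of all genes were higher and 623 lower, against 110 and 174 as deposited. With small RNA genes left out and the libraries rescaled, a shift of 0.24 the other way, 175 were higher and 41 lower. The same 3 SLRP genes passed under both. The median log2 ratio was 0.27 over these 9 SLRP genes and -0.02 over all genes measured. Intervals given with folds below are 95% exact intervals from estimated fragment numbers and cover counting error only, not the spread between cultures.

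Decorin, which binds collagen fibrils and TGF-beta, was at 1.72 FPKM in control WT and 17.5 FPKM in control KO. Its FPKM was 10.2-fold higher in the KO library (interval 7.75 to 13.8), a log2 ratio of 2.77 that was the 28th largest among all genes measured. Lumican, a keratan sulfate SLRP that limits fibril growth, was at 0.0264 FPKM in control WT and 1.21 FPKM in control KO. These levels correspond to about 1 fragment and about 48 fragments, so the fold of 45.8 had a wide interval, from 9.36 to 2206, and the log2 ratio of FPKM + 1 was 1.11. Podnl1, a podocan-like class V member, was at 7.81 FPKM in control WT and 2.34 FPKM in control KO, 3.34-fold lower (interval 2.59 to 4.32). The control libraries thus differed most in the share that decorin took.

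Among the members within the size rule, Aspn came closest, with 1.38 FPKM in control WT and 3.21 FPKM in control KO. Its FPKM was 2.33-fold higher (interval 1.70 to 3.26), but the log2 ratio of FPKM + 1 was 0.82, because the added 1 weighs on low levels. Ogn was at 8.32 and 12.3 FPKM (log2 ratio 0.51), Fmod at 3.86 and 4.87 FPKM (0.27) and Bgn at 447 and 483 FPKM (0.11) in control WT and control KO. Prelp, a collagen- and perlecan-binding member, was lower in control KO, at 8.39 against 12.5 FPKM (-0.52). Omd was at 1.49 and 1.17 FPKM in control WT and control KO, and its interval included no difference.

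The second comparison set the induced KO library against the induced WT library. Of 9 genes, 2 were higher in induced KO, Dcn and Prelp, and 5 were lower, Omd, Aspn, Fmod, Ogn and Podnl1, while Bgn and Lum were within the rule. The background was 10.7% of all 11936 genes measured (5.27% higher, 5.4% lower). The median log2 ratio was -1.03 over the 9 genes and -0.02 over all genes. The libraries compared also stood apart in sex-linked genes, with log2 ratios of 4.41 for Xist and -4.88 for Ddx3y. The summed stromal markers were at 1799 FPKM in induced KO and 3436 FPKM in induced WT, of which Col1a1 and Col1a2 made up 836 and 1909 FPKM. Of 17 stromal markers measured, 5 were lower in induced KO and 2 higher, Twist2 (2.47) and Thy1 (2.43). The part of the sex-linked or stromal genes in the SLRP values was not tested. Sex-linked expression and genotype label cannot be told apart in this pair.

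Osteomodulin, encoded by Omd, had the largest difference downward of the family, with 7.12 FPKM in induced WT and 1.07 FPKM in induced KO. Its FPKM was 6.66-fold lower in the KO library (interval 4.56 to 10.1; log2 ratio -1.97), and with a pseudocount of 5 FPKM in place of 1 its log2 ratio was -0.997, just inside the rule. Asporin, a collagen-binding SLRP with an aspartate-rich start that restrains TGF-beta, was at 19.8 FPKM in induced WT and 5.44 FPKM in induced KO, 3.64-fold lower (interval 3.13 to 4.22). Fibromodulin, encoded by Fmod and needed for regular collagen fibrils in tendon, was at 12.9 and 3.76 FPKM in induced WT and induced KO, 3.44-fold lower (interval 2.95 to 4.02). Osteoglycin, encoded by Ogn, was at 33.7 and 13.1 FPKM, 2.58-fold lower (interval 2.34 to 2.83). Podnl1 was at 9.98 and 4.39 FPKM, 2.28-fold lower (interval 1.89 to 2.74), and its log2 ratio of -1.03 lay just past the rule (-0.67 with a pseudocount of 5 FPKM).

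In the other direction, Dcn was at 2.13 FPKM in induced WT and 12.0 FPKM in induced KO, 5.60-fold higher in the KO library (interval 4.27 to 7.51). Prelp was at 2.24 and 9.82 FPKM, 4.39-fold higher (interval 3.62 to 5.33). Bgn was lower in induced KO by a log2 ratio of -0.44, and Lum, at 1.40 FPKM in induced WT and 1.04 FPKM in induced KO, had an interval that included no difference. Relative to the geometric mean of the stromal markers in the same library, 5 of the 7 genes still passed, Dcn and Prelp higher and Aspn, Fmod and Omd lower, and Ogn and Podnl1 did not. That scaling shifts log2 ratios of FPKM by 0.48 before 1 is added. Of all genes, 1995 then passed, 1727 higher and 268 lower, against 629 higher and 644 lower as deposited. Without the collagens and Serpinh1 among the markers, an alternative added after the data had been seen, Ogn also passed (log2 ratio -1.04). Of all genes, 1115 were then higher and 388 lower. With small RNA genes left out, a shift of -0.25, all 7 SLRP genes passed, and 348 of all genes were higher and 1128 lower.

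**Figure D3:**
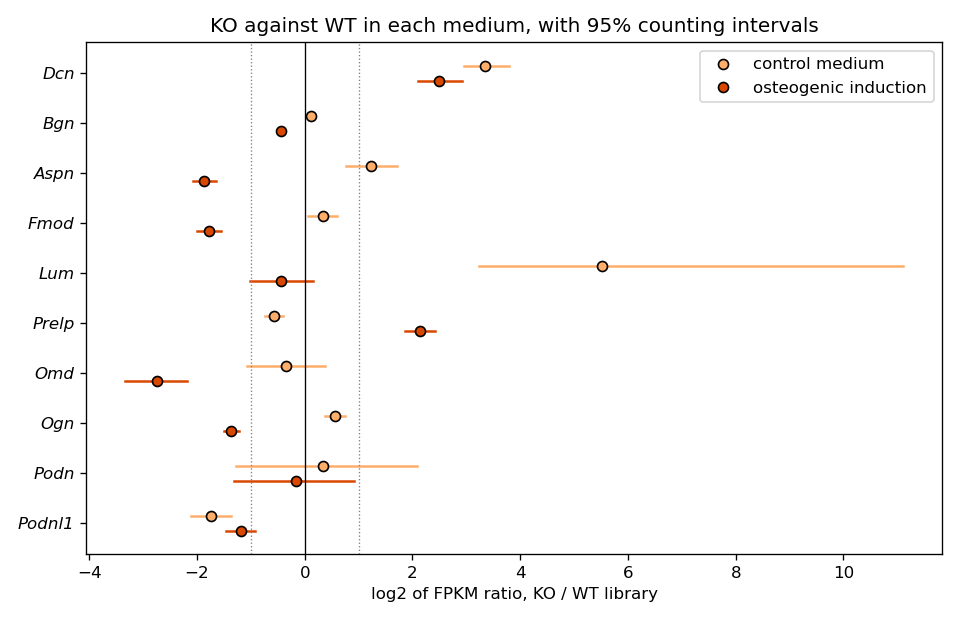
log2 of the FPKM ratio of the KO to the WT library for each gene, in control medium and under induction, with 95% counting intervals as lines and a 2-fold difference as dotted lines. Dcn lies to the right and Podnl1 to the left in both media, and Bgn, Aspn, Fmod, Lum, Prelp, Ogn and Podn change side. The intervals of Podn in both media and that of Lum under induction include no difference.

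When the control WT library took the place of the induced WT library, the picture of this comparison changed. Of the 7 genes, Dcn kept its direction with a log2 ratio of 2.25 and Aspn reversed to 1.44, and no other member passed, against 2.83% of all genes (1.43% higher, 1.4% lower). Fmod (-0.03), Omd (-0.26), Podnl1 (-0.71), Prelp (-0.32) and Ogn (0.60) were within the rule, as were Lum (0.99) and Bgn (-0.27). Both the medium and the genotype label differ in that pair.

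The KO and WT libraries of both media differed in the same direction past the size rule for 2 of the 9 genes, Dcn upward and Podnl1 downward. Over all genes measured in both media, 0.174% passed upward in both and 0.104% downward in both. Dcn was at 17.5 and 12.0 FPKM in the KO libraries and at 1.72 and 2.13 FPKM in the WT libraries, so the labels did not overlap. Podnl1 was at 2.34 and 4.39 FPKM in the KO libraries and at 7.81 and 9.98 FPKM in the WT libraries, also without overlap. Omd was the remaining member whose labels did not overlap, with 1.17 and 1.07 FPKM in the KO libraries and 1.49 and 7.12 FPKM in the WT libraries, a narrow gap in control medium. Over all genes, both KO libraries lay above both WT libraries in 6.34% and below in 9.68%.

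The other pattern was a difference of opposite sign in the 2 media, found in Aspn, Fmod, Lum, Prelp and Ogn with at least one of the ratios past the rule, and in 7.67% of all genes measured in both. For Aspn the log2 ratio of KO to WT was 0.82 in control medium and -1.69 under induction. Prelp went the other way, from -0.52 to 1.74. For Lum the interval under induction included no difference, and its ratio in control medium rests on about 1 fragment in control WT. With 1 library per group, the difference between media could not be tested.

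**Figure D4:**
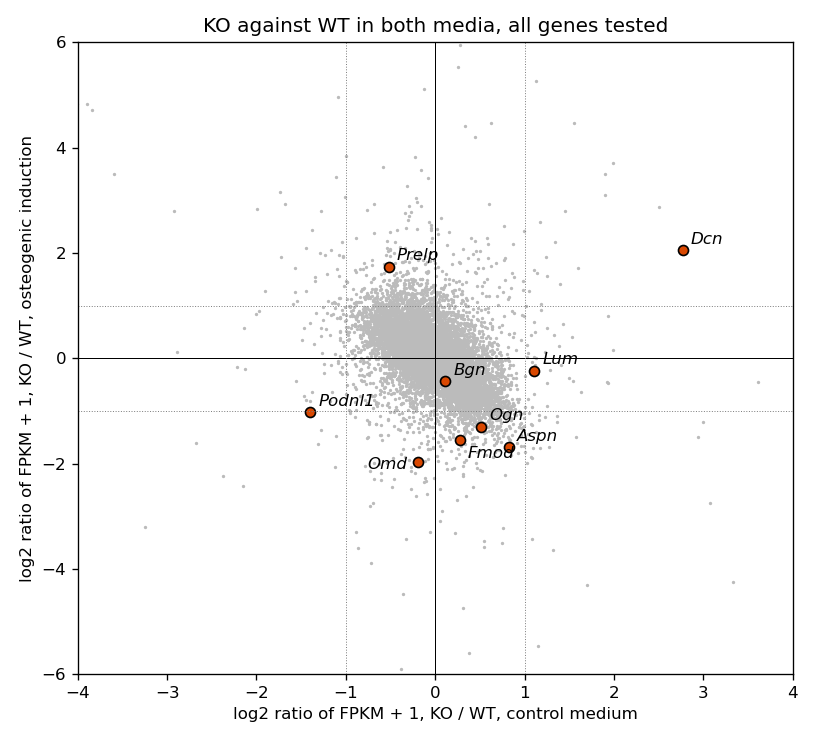
log2 ratio of FPKM + 1 of KO to WT in control medium (horizontal) and under induction (vertical) for the 11487 genes measured in both, with 29 of them outside the axes, and 9 SLRP genes in orange. Dcn lies far out at the upper right, and Aspn, Fmod, Ogn, Omd and, narrowly, Podnl1 lie below the dotted line at -1.

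Induction against control was read within each label, from values of separately deposited tables set side by side. In WT cells, Aspn, Fmod, Lum, Omd and Ogn were higher and Prelp was lower in the induced library, 6 of 9 genes against a background of 15.2% of 12094 genes (7.22% higher, 7.95% lower). The median log2 ratio was 1.23 over the 9 genes and -0.03 over all genes. Aspn was at 1.38 FPKM in control WT and 19.8 FPKM in induced WT, 14.4-fold higher (interval 11.1 to 19.3). Omd was at 1.49 and 7.12 FPKM, 4.79-fold higher (interval 3.45 to 6.96), and Ogn at 8.32 and 33.7 FPKM, 4.05-fold higher (interval 3.62 to 4.55). Fmod was at 3.86 and 12.9 FPKM, 3.35-fold higher (interval 2.87 to 3.92). Lum was at 0.0264 and 1.40 FPKM, a log2 ratio of 1.23 that rests on about 1 fragment in control WT. With a pseudocount of 5 FPKM, Omd (0.90) and Lum (0.35) did not pass in this pair.

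Prelp was the opposite case, with 12.5 FPKM in control WT and 2.24 FPKM in induced WT, 5.58-fold lower (interval 4.62 to 6.76). Dcn (log2 ratio 0.21), Bgn (0.17) and Podnl1 (0.32) were within the rule. The stromal markers had a median log2 ratio of 1.26 in the same pair of libraries, with 11 of 17 higher and 2 lower. Relative to their geometric mean, 2 of the 6 SLRP genes passed, Aspn higher and Prelp lower. That scaling shifts log2 ratios of FPKM by -0.98 before 1 is added. Of all genes, 214 were then higher and 5154 lower, against 873 and 961 as deposited. With small RNA genes left out, a shift of 0.31, all 6 SLRP genes passed, and 1476 of all genes were higher and 520 lower. Without the collagens and Serpinh1 among the stromal markers, 5 passed, Aspn, Lum, Omd and Ogn higher and Prelp lower. Of all genes, 336 were then higher and 3233 lower. The libraries of this pair also differed in the sex-linked genes, whose part was not tested.

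In KO cells, 0 of 9 genes passed, against a background of 2.61% of 11748 genes, and the median log2 ratio was -0.07 beside -0.04 over all genes. Of all genes, 181 were higher and 126 lower as deposited, 141 and 189 relative to the stromal markers, and 68 and 176 with small RNA genes left out, where 0 SLRP genes passed either. No test and no other tool was run on this pair. The largest ratios in size were those of Podnl1, at 2.34 FPKM in control KO and 4.39 FPKM in induced KO (log2 ratio 0.69), and Aspn, at 3.21 and 5.44 FPKM (0.62). At a 1.5-fold rule both were counted as higher, but of all 11748 genes 714 were then higher and 650 lower. Dcn was at 17.5 and 12.0 FPKM (-0.51) and Bgn at 483 and 372 FPKM (-0.38). Omd, Lum and Ogn had intervals that included no difference, Omd with 1.17 FPKM in control KO and 1.07 FPKM in induced KO. Fkbp5, a glucocorticoid-induced gene, was at 3.94 FPKM in control KO and 79.3 FPKM in induced KO. In control WT and induced WT it was at 4.10 and 118 FPKM, and the log2 ratio of KO to WT under induction was -0.57. Its relation to the SLRP values was not tested.

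Neighbouring genes of the family did not share a profile in every case. On chromosome 13, Ecm2 is a related leucine-rich matrix gene beside Aspn. It was at 0.254, 0.482, 0.566 and 0.536 FPKM in control WT and KO and induced WT and KO. Its highest library was also induced WT, but between values below 1 FPKM a log2 ratio of FPKM + 1 cannot reach 1. Whether Ecm2 shares the profile of its neighbours therefore cannot be read from these values. Aspn, Omd and Ogn were each highest in induced WT by a log2 ratio of at least 1 over the other 3 libraries. Fmod shared this on chromosome 1, making 4 of 10 members. Of all genes with at least 1 FPKM in a library, which leaves out Podn, 2.66% did so. Prelp, the neighbour of Fmod, was lower in induced WT than in each other library by at least that size, as were 2.77% of these genes. On chromosome 10, Dcn and Lum both had low values in control WT, but induced WT was low for Dcn (2.13 FPKM) and the highest library for Lum (1.40 FPKM). Kera, the next gene, was listed at 0 in all 4 libraries, and Epyc was at most 0.0259 FPKM. The gene Cenpp, which overlaps Aspn, Omd and Ogn in the annotation, was at 3.33, 2.38, 0.849 and 1.80 FPKM in control WT and KO and induced WT and KO, the lowest where they were highest. No source used here says whether counting used the strand, and Podnl1 overlaps Cc2d1a, which was at 9.32 to 14.96 FPKM, so reads of such pairs may not be fully separated.

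**Figure D5:**
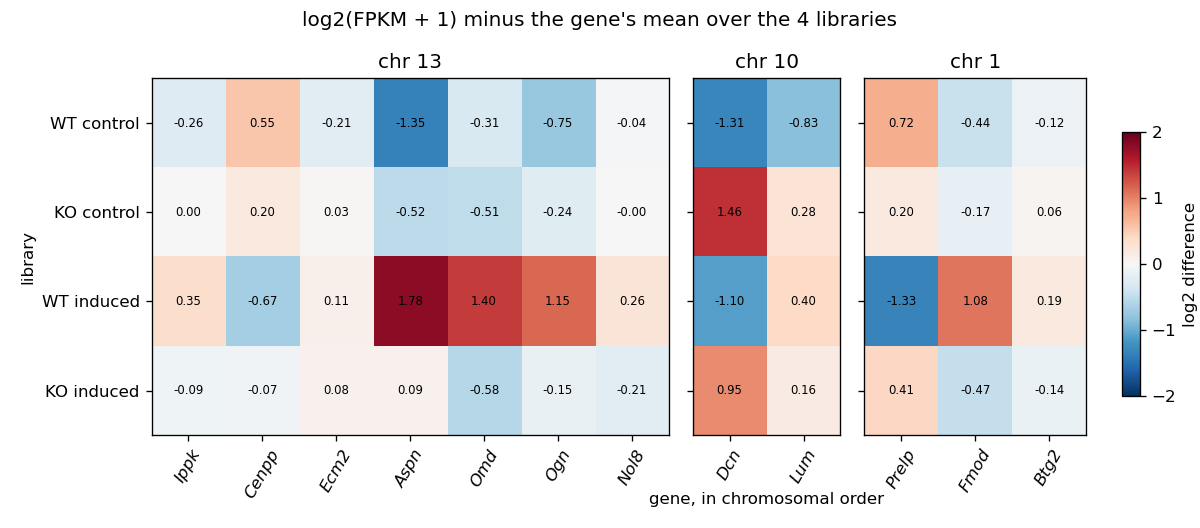
log2(FPKM + 1) minus the gene's mean over the 4 libraries for SLRP genes and expressed neighbours, in chromosomal order on chromosomes 13, 10 and 1. Aspn, Omd and Ogn are above their means by 1.15 to 1.78 in induced WT, and the flanking Ippk and Nol8 by 0.35 and 0.26.

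Genes that build the sugar chains of SLRPs or supply their sulfate passed the size rule about as often as all genes did, of which 2.4% passed between the control libraries and 10.7% between the induced ones. Of 13 to 14 chondroitin and dermatan sulfate enzymes measured, 0 passed between the control libraries and 1 between the induced ones. That gene was Chst15, a chondroitin sulfotransferase, at 8.03 FPKM in induced WT and 1.19 FPKM in induced KO (log2 ratio -2.04). The dermatan sulfate epimerase Dse was at 23.2, 30.2, 44.5 and 30.8 FPKM in control WT and KO and induced WT and KO. Of 7 linker enzymes, only Xylt2, a xylosyltransferase that starts the chains, passed, at 46.9 FPKM in induced KO and 21.7 FPKM in induced WT (1.08). Of 8 keratan sulfate enzymes, Chst2, a sulfotransferase, passed between the induced libraries, at 1.69 FPKM in KO and 5.43 FPKM in WT (-1.26). Of 8 genes for sulfate supply and tyrosine sulfation, Impad1, a Golgi phosphatase needed for chondroitin sulfation, passed in both media with opposite signs, 1.01 in control medium and -1.79 under induction. Between media in KO cells, the single gene of these groups that passed was Chst11, a chondroitin sulfotransferase (-1.01).

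Collagens bound by SLRPs were higher in induced WT than in control WT in 7 of 11 genes, with a median log2 ratio of 1.64, where 7.22% of all genes were higher. Col1a2, a chain of type I collagen, was at 280 and 1073 FPKM in control WT and induced WT. Between the induced libraries, 1 of 10 collagens was higher in KO, Col2a1 (log2 ratio 3.50), the collagen of cartilage, and 1 was lower, Col1a2 (-1.58), with a median of -0.79, beside 5.27% of all genes higher and 5.4% lower. Bgn thus differed between libraries by at most a log2 ratio of 0.44 in size within a comparison, while Col1a1 and Col1a2 together ranged from 515 to 1909 FPKM. In KO cells, 0 of 11 collagens passed between the media, with a median of 0.38, beside 2.61% of all genes passing. In control medium, Col2a1 (1.90) and Col3a1 (1.41) of 11 collagens were higher in KO and 0 were lower. Of all genes in control medium, 0.929% were higher and 1.47% lower.

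The list of proteases that process or degrade SLRPs also held Pcolce and Pcolce2, which are enhancers of procollagen processing and not proteases. Of its 12 genes measured, 6 were lower in induced KO than in induced WT, Pcolce2 among them, and 1 was higher. The median log2 ratio was -1.003, in a pair where 5.4% of all genes were lower and 5.27% higher. Mmp13, the collagenase of bone and cartilage, was at 10.5 and 107 FPKM in induced KO and induced WT (-3.23), and Mmp2, a gelatinase, at 41.5 and 168 FPKM (-1.99). Pcolce2, an enhancer of procollagen processing, had -1.63, Adamts4, an aggrecanase, -1.22, and Mmp3 was higher (1.79). Bmp1, the protease that trims the biglycan propeptide, was at 38.8 to 50.9 FPKM in the 4 libraries. Of 18 growth factor and receptor genes, 3 were lower in induced KO, with Wisp1, a matricellular protein that binds decorin and biglycan, at 3.21 against 61.3 FPKM (-3.89), Bmp4 (-1.13) and Bmp2 (-1.02). Cd14, a co-receptor of Toll-like receptors, was higher at 212 against 37.8 FPKM (2.46), and Tlr2 and Tlr4, the receptors reported for soluble biglycan, had -0.33 and -0.59. The macrophage markers, which include Cd14, had a median of 0.53 in the same pair.

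Among the 8 further SLRP family genes, Tsku, a secreted regulator of growth factor signals, was the most abundant, at 8.69, 9.87, 14.5 and 10.4 FPKM in control WT and KO and induced WT and KO, and 0 of the 2 measured under either medium passed. Of all genes, 2.4% passed between the control libraries and 10.7% between the induced ones (5.27% higher, 5.4% lower). Of the large proteoglycans, Sdc2, the cell surface syndecan 2, was at 33.2 FPKM in induced KO and 134 FPKM in induced WT (-1.99). Spock2 had -1.11, and the other 11 of 13 were within the rule. Markers of other cell types were measured beside these genes. The tendon factor Scx was at 6.35 FPKM in induced WT and 0.495 FPKM in induced KO, and Kera and Thbs4 were listed at 0 in all libraries. The other tendon markers did not share the difference of Scx. Mkx was within the rule, at 1.12 FPKM in induced WT and 0.748 FPKM in induced KO. Tnmd was listed at 0 in induced WT and was at 0.183 FPKM in induced KO. Of the cartilage genes, Acan was at most 0.00692 FPKM and Col2a1 was at 19.0 FPKM in induced KO and 0.773 FPKM in induced WT. Comp, at 1.81 and 0.431 FPKM in induced KO and WT (0.97), and Sox9, at 2.51 and 3.71 FPKM (-0.42), were within the rule. In control medium Comp was lower in KO (-1.25) and Col2a1 higher (1.90), so these markers did not agree. Chad and Matn3 stayed below 1 FPKM. Of 7 osteoblast markers, 5 were lower in induced KO, beside 5.4% of all genes, and 1, Bglap2, was higher (1.16). The largest difference among them was that of Ibsp, the bone sialoprotein, at 1.98 against 177 FPKM (-5.90). Of 5 adipocyte markers measured, 3 were higher in induced KO and 0 lower, beside 5.27% and 5.4% of all genes. The adipocyte markers summed to 852.5 FPKM in induced KO and 434 FPKM in induced WT, and the 5 endothelial markers to at most 4.80 FPKM in any library. The part of these cell types in the SLRP values was not tested.

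Genes whose profile over the 4 libraries lay nearest to a member were found by the distance between centred log2(FPKM + 1) profiles among 9220 genes with at least 5 FPKM in one library. With so many genes and 4 libraries a close profile is easily found, and the distances are a description. For Dcn the nearest was Gm15698 at a distance of 0.67, farther than the nearest gene of any other member searched. For Prelp they were Bdnf (0.03) and Ube2c (0.12), for Aspn Adam12 (0.27) and Clec4a1 (0.30), and for Fmod Yes1 (0.07) and Slc30a4 (0.08). For Omd the nearest was Ddit4l (0.16), and the nearest pairs were for Ogn Nox4 and Rspo2 (0.14 each), for Podnl1 Gpx3 (0.25) and Nupr1 (0.29), and for Bgn Suclg2 (0.02) and Gtf2h2 (0.03). Within the family, Fmod and Ogn were closest to each other (0.45), followed by Fmod and Omd (0.50), and Aspn and Prelp were farthest apart (3.83).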

How the data were processed

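The deposited values were FPKM in 2 tables, one per medium, made by the authors with TopHat and Cufflinks on build mm9, per the submitters' processing notes. The tool versions, the annotation, the use of strand and the scaling between tables are given in no source used here. In each table, 27 entries whose symbol had turned into a date were left out. With 1 library per group no test was run, and an additive fit over the 4 libraries was not run. Log2 ratios used FPKM + 1, and a gene was counted at a ratio of at least 1 in size if either library held at least 1 FPKM. Depth was estimated from the product of FPKM and transcript length that 1 fragment gives, the mode over 474 to 591 genes with 1 GENCODE M21 transcript and less than 0.15 FPKM. Fragment numbers of members took their shortest coding transcript of at least 1000 bases, so that intervals are wide rather than narrow. These estimates were chosen after the data had been seen. Intervals were Clopper-Pearson (scipy 1.17.1). PCR copies are not independent, so they cover counting error only. RefSeq windows and gene order came from GRCm38.p6, which differs from the authors' build. The members, the 17 lists of 165 different genes and the rule for named genes were chosen with earlier results of these data known. Named were all members, up to 4 genes past the rule per list and comparison, cell type markers, neighbours and the 2 nearest profiles per member. Some genes the rule took are not reported here, and Dse, Bmp1, Tlr2, Tlr4, Tsku, Acan, Fkbp5 and Kdm4b were named beside it after their values had been seen. Alternatives were another pseudocount, filter, scaling or size rule and the replacement of the induced WT library.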

Additional observations from a re-analysis of the deposited data

Results flagged for a closer look

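In 5 genes the difference between KO and WT had opposite signs in the 2 media, with at least one log2 ratio past the size rule. The log2 ratio under induction minus that in control medium was -2.52 for Aspn, -1.82 for Fmod, -1.81 for Ogn, -1.34 for Lum and 2.26 for Prelp. These differences were not tested, since each group was 1 library. For Aspn, Fmod, Ogn and Prelp the ratio past the rule involves the induced WT library, which also differed in Xist (0.0621 FPKM) and Ddx3y (28.7 FPKM), and the part of that in the values was not tested. For Lum it rests on about 1 fragment in control WT, and the interval under induction included no difference.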

How the results depend on the processing

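Where induced WT was replaced, by control WT as the reference of induced KO or by induced KO against control WT, both alternatives come to the same pair, induced KO against control WT, in which 2 SLRP genes, Dcn and Aspn, and 334 of all genes passed. Of ratios past the rule as deposited, Aspn (1.44), Prelp (-0.32) and Ogn (0.60) in that pair had the opposite sign to KO against WT under induction, and Fmod (-0.031) and Omd (-0.26) the opposite sign to induction against control in WT. Of ratios within the rule, Lum (0.99) turned in the first case, and Podnl1 (-0.71) and Bgn (-0.27) in the second. Podn, below 1 FPKM throughout, also turned in the first case, from -0.066 to 0.34. The difference between media then equals induction against control in KO, where Aspn (0.62), Ogn (0.087) and Podn (0.25) turned. With a pseudocount of 5 FPKM, 1 SLRP gene, Dcn, passed in control medium, Omd (-0.997) and Podnl1 (-0.67) no longer passed between the induced libraries, and Omd (0.90) and Lum (0.35) no longer passed between media in WT. All genes then passing numbered 149 in control medium and 535 under induction between KO and WT, and 801 in WT and 168 in KO between media. With a pseudocount of 0.1 FPKM they were 559, 1931 and, between media in KO, 535. Relative to stromal markers, 2 SLRP genes passed between media in WT, and all genes numbered 690, 1995 and, between media in WT, 5368. Without the collagens and Serpinh1 among those markers, chosen after seeing the data, 703 passed between KO and WT in control medium and 3569 between media in WT. A 1.5-fold rule gave 1465, 3756, 4535 and 1364 in the 4 comparisons, and 2 SLRP genes, Aspn and Podnl1, between media in KO. The cause of these shifts was not tested. Of 330 member values under alternatives, Podn included, 224 moved within the spread their counting interval gives, 99 moved further and 7 reversed. A wide interval leaves room for a large move, so the 224 are not all stable values. For Lum in control medium, a fall of the log2 ratio from 1.11 to 0.31 with a pseudocount of 5 FPKM lay within that spread. Depth limits Lum in control WT, at about 1 fragment. No paired analysis was possible because the groups share a single replicate number. An additive fit of genotype and medium, which would leave 1 residual degree of freedom, was not run.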
